A study of Homo sapiens with 6 samples.

Results

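The 7 genes described here, MPO, PRTN3, CTSG, BPI, CAMP, RNASE2 and PRG2, encode proteins stored in the granules of granulocytes. They were chosen by name, as every line of the 4 deposited peak lists that carries 1 of these gene symbols, and make up 7 of the 18086 gene symbols in those lists. The cells are HL-60, a human promyelocytic leukaemia line that the labels call myeloblast. H3K4me3 and H3K27me3 were each mapped by chromatin immunoprecipitation and sequencing in the parental line and in a JMJD3 knockout of it; JMJD3 is a demethylase of histone H3 lysine 27. There was 1 library per genotype and mark, so no value below has a replicate check and no test was made. The labels do not say whether the knockout cells are a single clone. The antibody label of the H3K27me3 libraries names H3K4me3, so their mark was taken from their titles.

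Granulocytes fill their granules in steps as they mature. Azurophil granules form first, at the promyelocyte stage, and hold myeloperoxidase and serine proteases, whereas specific and gelatinase granules form later. Eosinophils carry granules of their own, filled with basic proteins and ribonucleases. H3K4me3 marks promoters that are active or poised, and H3K27me3 marks chromatin repressed by Polycomb complexes.

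All 7 genes had at least 1 H3K4me3 peak whose centre lay within 20 kb of the transcription start site (TSS) in parental cells. In knockout cells 5 had one. Of all 18086 symbols in the lists, 85.0% had one in parental and 75.6% in knockout cells. The 7 genes were chosen with earlier results of these data known, so these counts cannot be read as a trait of them. CTSG and CAMP were listed in parental cells only. Over all 15614 genes with a peak in either list, 12.5% were found in the parental list alone and 1.49% in the knockout list alone. The 7 genes had 29 distinct peaks covering 15083 bp in parental cells and 22 peaks covering 6475 bp in knockout cells. With the parental list cut to its widest peaks, so that both lists had equal length, the counts were 21 and 22, so the higher parental count did not hold. MPO alone held 56.7% of that width in parental and 59.3% in knockout cells. The lists give regions and not read counts, so the depth is unknown, and a width is the extent of the called regions and not the amount of the mark. As a whole, the parental H3K4me3 list had 33470 peaks of median width 359 bp, and the knockout list 24943 of 260 bp. The median peak of the 7 genes was 334 bp wide in parental and 207.5 bp in knockout cells.

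**Figure D1:**
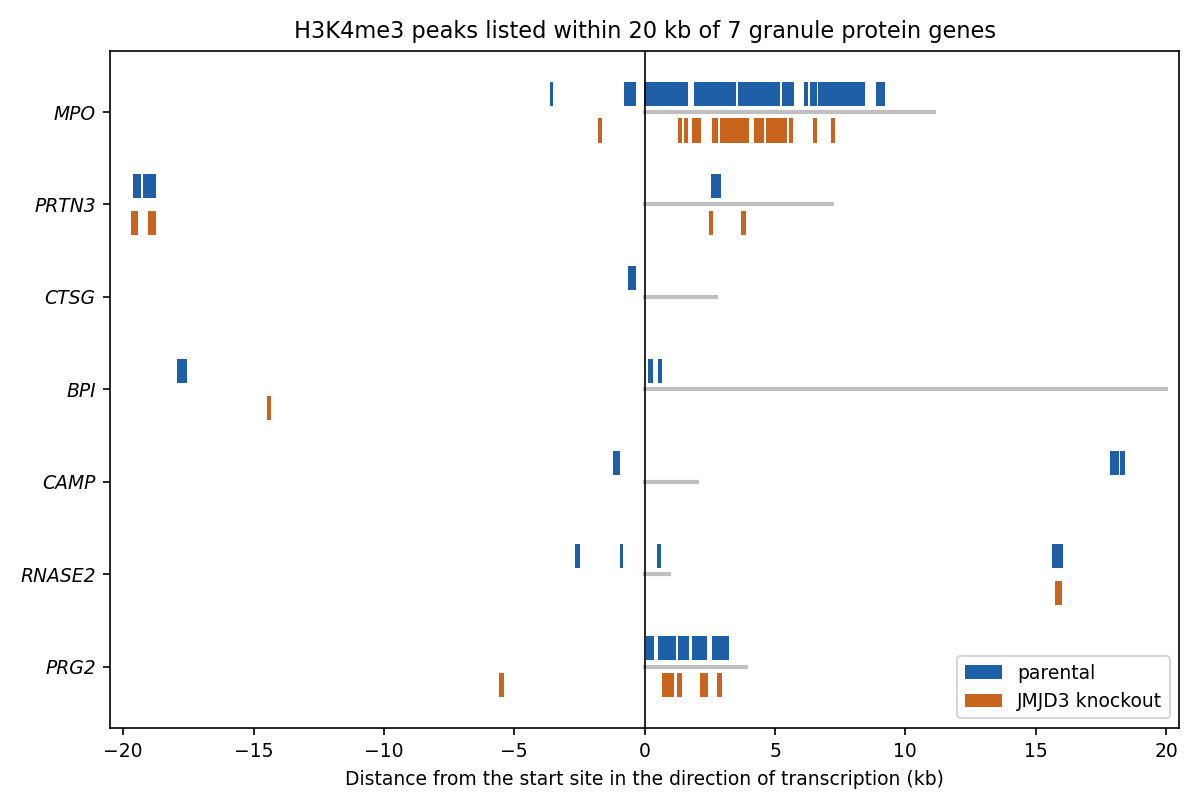
Position of each H3K4me3 peak within 20 kb of the 7 genes; the horizontal axis is the distance from the TSS in kb in the direction of transcription, coloured blocks are peaks of parental (blue, above) and JMJD3 knockout cells (orange, below), and grey lines are the gene spans from RefSeq lengths, drawn up to 20 kb. Parental peaks of MPO and PRG2 fill most of the first kilobases of the gene. Knockout peaks inside these genes begin 1271 bp (MPO) and 683 bp (PRG2) downstream of the TSS, and CTSG and CAMP have no knockout peak.

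The 5 genes listed in both genotypes narrowed in the knockout list, as nearly all genes did. Their median log2 ratio of summed width, knockout over parental, was -1.16, beside a median of -1.03 (quartiles -1.50 and -0.66) over the 13433 genes with a peak in both lists. BPI, MPO, RNASE2 and PRG2 were at a log2 ratio of -1 or below, which is 4 of 5 genes, and 52.2% of all genes were. PRG2 was only just below, at -1.008. The count did not hold with lists of equal length, where RNASE2 went from 391 to 299 bp and so was above -1. The median of the 5 genes was then -1.008, and no median over all genes is given for that setting. Narrowing of any size was found at 5 of 5 genes and at 96.1% of all genes. No member was at a log2 ratio of 1 or above, where 0.395% of all genes were.

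**Figure D2:**
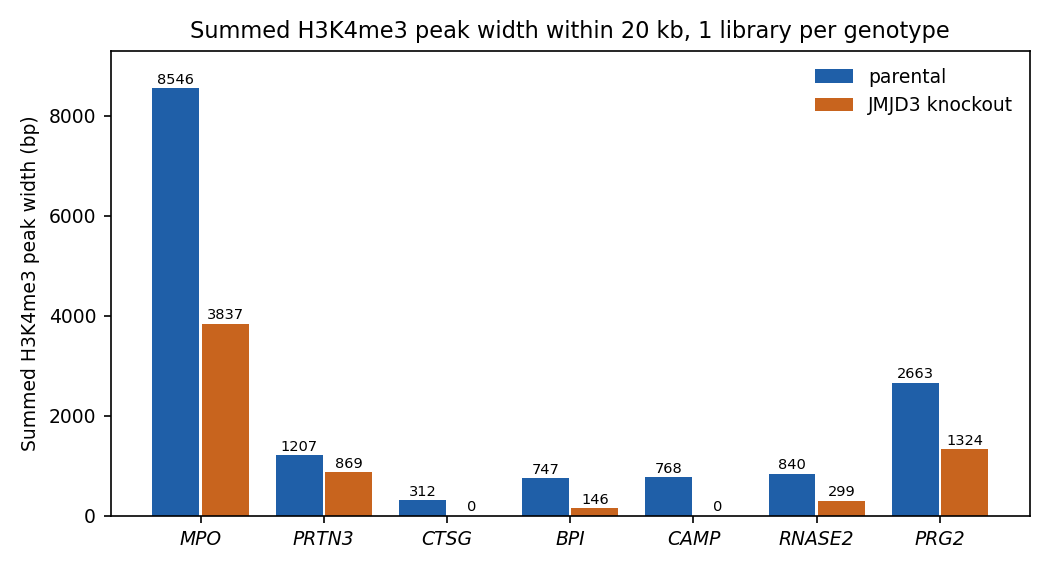
Summed width of H3K4me3 peaks within 20 kb of each gene, in bp, with 1 bar for the single library of each genotype and therefore no error bars. Every gene had the lower bar in knockout cells, from 8546 to 3837 bp at MPO and to 0 at CTSG and CAMP.

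**Figure D3:**
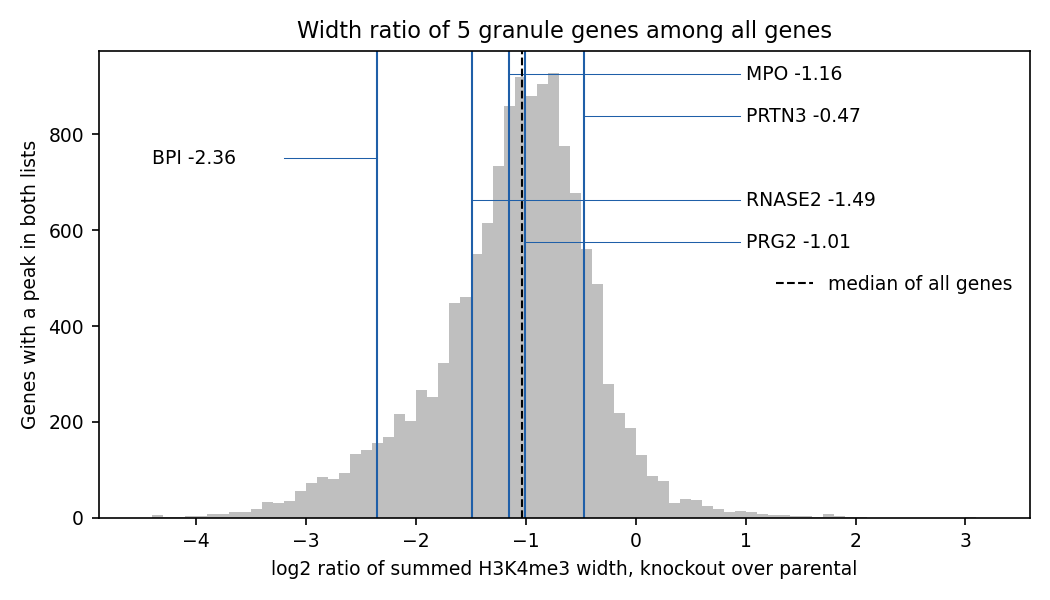
Log2 ratio of summed H3K4me3 width, knockout over parental, for all 13433 genes with a peak in both lists (grey histogram), with solid lines at the 5 granule genes and a dashed line at the median of all genes. BPI lies in the lower tail, and the other 4 lie within the bulk, PRTN3 on its upper side.

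MPO encodes myeloperoxidase, the azurophil enzyme that makes hypochlorous acid. Its TSS (NM_000250) lies at 56358296 on chromosome 17 (hg19), and the gene is transcribed from the minus strand. In parental cells 10 peaks summed to 8546 bp, and 73 genes (0.475% of those listed) had a larger sum. In knockout cells 11 peaks summed to 3837 bp, and 233 genes (1.71%) had a larger sum. The mark lay over the gene rather than upstream of it: 7905 of the parental and 3665 of the knockout bases were downstream of the TSS. RefSeq gives MPO a length of 11081 bp, of which these bases cover 71.3% and 33.1%.

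The widest parental peaks of MPO were 1807 bp (from 56349827 to 56351633), 1687 bp (from 56356632 to 56358318), 1612 bp and 1606 bp. The second of these spans the TSS by 22 bp. In the knockout list the widest peaks were 1112 bp (from 56354291 to 56355402) and 816 bp (from 56352837 to 56353652), both inside the gene. No knockout peak spanned the TSS, and the nearest edge of one lay 1271 bp downstream of it. All 10 knockout peaks inside the gene overlapped a parental peak, and the other one, 1715 bp upstream, did not. The called region over the gene was thus shorter on both sides in the knockout list. Parental peaks ran from 798 bp upstream to 9207 bp downstream of the TSS, leaving out 1 peak farther upstream. They did not reach the far end of the gene, whose length is 11081 bp. Knockout peaks inside the gene ran from 1271 to 7296 bp downstream, which leaves out the knockout peak 1715 bp upstream.

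When peaks less than 500 bp apart were joined, 9 parental peaks of MPO formed a region of 10005 bp, from 56349090 to 56359094. None of the other regions among 16152 in the parental list was longer, and the next was 9047 bp. In the knockout list the longest joined region of MPO was 4427 bp, and 13 of 14788 regions were longer. The first place depends on the gap allowed. With gaps under 250 bp the parental region was 5733 bp and 13 regions were longer, and with gaps under 1000 bp 4 were longer. Joining at 500 bp had been planned for the overlap of peaks alone; its use for region length and both other gaps were chosen after the peaks were seen. The log2 ratio of MPO, -1.16, was above the median of -1.63 over 25 genes listed in both genotypes within 1 Mb of it. So were PRTN3 (-0.47 against -0.91) and PRG2 (-1.01 against -1.25) for their own neighbours. BPI (-2.36 against -1.08) and RNASE2 (-1.49 against -0.94) were below. Neighbouring genes can share peaks, so the genes behind such a median are not separate values.

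**Figure D4:**
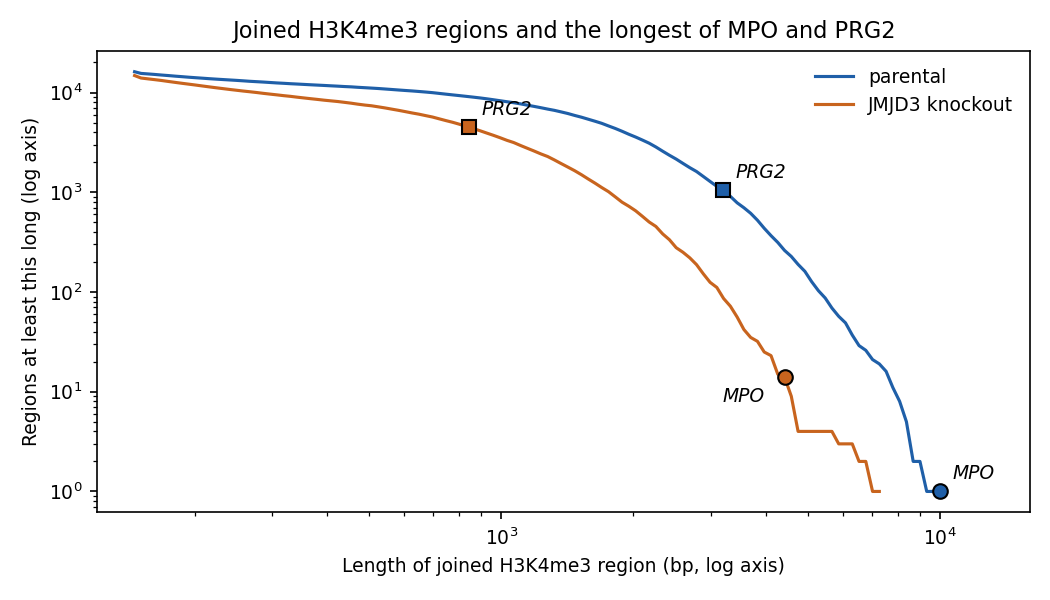
Number of joined H3K4me3 regions of at least a given length, both axes logarithmic, for parental (blue) and knockout cells (orange), with the longest region of MPO (circles) and of PRG2 (squares) in each list. The MPO region of 10005 bp is at the end of the parental curve, and its 4427 bp region has 13 longer ones in the knockout list.

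PRTN3 and CTSG encode proteinase 3 and cathepsin G, serine proteases of azurophil granules. PRTN3 (NM_002777, TSS at 840984 on chromosome 19) had 3 parental peaks of 1207 bp and 4 knockout peaks of 869 bp, a log2 ratio of -0.47, and 84.1% of all genes had a lower one. Only part of this belongs to the gene. In each genotype 2 peaks about 19 kb upstream lay closest to the TSS of LPPR3, 34 bp from it at the nearest. The peaks closest to PRTN3 were 1 of 389 bp, from 843527 to 843915, in parental cells and 2 of 149 and 182 bp in knockout cells, all downstream of the TSS. These peaks are also the only ones listed for ELANE, the neutrophil elastase gene next to PRTN3, at distances of 7514 to 8768 bp. With only peaks closest to PRTN3 counted, the difference shrank from -338 to -58 bp. No peak centre lay within 1 kb of its TSS in either genotype.

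CTSG (NM_001911, TSS at 25045466 on chromosome 14, minus strand) had a single parental peak of 312 bp, from 25045784 to 25046095, whose nearest edge lay 317 bp upstream of the TSS. It had none in knockout cells. Within 1 Mb of CTSG the knockout list held 35 peaks and the parental list 45. Of 3660 genes with a parental sum under 1000 bp, 44.6% had no knockout peak, against 0.281% of those with 2000 bp or more. CTSG, BPI, CAMP and RNASE2 fall in the narrow class, and CTSG and CAMP, 2 of these 4, had no knockout peak.

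BPI and CAMP encode antibacterial proteins: the bactericidal permeability-increasing protein of azurophil granules, which binds lipopolysaccharide, and the cathelicidin precursor of specific granules. BPI (NM_001725, TSS at 36932551 on chromosome 20) had 2 parental peaks just downstream of its TSS, of 207 bp (from 36932668 to 36932874) and 157 bp, and 1 of 383 bp centred 17751 bp upstream. The only knockout peak, of 146 bp, was centred 14413 bp upstream and overlapped no parental peak. The log2 ratio of -2.36 had 6.67% of all genes below it, and it compares peaks at different places. With lists of equal length the difference at BPI was -237 bp in place of -601 bp. CAMP (NM_004345, TSS at 48264836 on chromosome 3) had 1 parental peak of 283 bp, from 48263625 to 48263907, centred 1071 bp upstream. Its 2 other parental peaks, about 18 kb downstream, lay 265 and 565 bp from the TSS of ZNF589, a zinc finger gene. None of the 3 had a knockout peak at its place.

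RNASE2 and PRG2 encode the eosinophil-derived neurotoxin, a ribonuclease, and the eosinophil major basic protein. RNASE2 (NM_002934, TSS at 21423629 on chromosome 14) had 3 narrow parental peaks around its TSS, of 157, 146 and 146 bp, centred 2578 and 888 bp upstream and 557 bp downstream. The narrowest peaks of both H3K4me3 lists are 146 bp wide, so these calls are at or near the smallest that the lists contain. Another peak, 15837 bp downstream, was 391 bp wide in parental cells and 299 bp in knockout cells, and it was the only knockout peak of RNASE2. With lists of equal length the summed width differed by -92 bp in place of -541 bp, which is the difference of this peak alone. RNASE2 has a closely related neighbour, RNASE3, and reads may align to both copies; the part this plays was not tested.

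PRG2 (4 transcripts with 1 TSS at 57158130 on chromosome 11, minus strand) was the second widest of the 7 genes. In parental cells 5 peaks of 303 to 684 bp summed to 2663 bp and formed a joined region of 3197 bp, from 57154895 to 57158091, which ended 39 bp short of the TSS. RefSeq gives the gene 3871 bp, and the peaks covered 68.8% of it. In knockout cells 4 peaks of 171 to 428 bp lay inside that region and covered 28.9% of the gene, and 1 of 204 bp lay 5490 bp upstream. The log2 ratio was -1.01, near the median of all genes, with 51.7% of them below it. The same peaks are listed for PRG3, a related gene, but at 6597 bp or more.

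At the start sites, a peak centre lay within 1 kb of the TSS at 5 of the 7 listed genes in parental cells (MPO, CTSG, BPI, RNASE2 and PRG2), beside 76.0% of all listed genes. In knockout cells it did at 1 of the 5 listed genes, PRG2, beside 73.6%. Of the 5 genes so marked, 4 (MPO, CTSG, BPI and RNASE2) were marked in parental cells only. Over all 11986 genes with such a peak in either list, 16.0% were. With a limit of 10 kb, 4 of 7 genes (CTSG, BPI, CAMP and RNASE2) were listed in parental cells only, beside 13.4% of all genes. With lists of equal length, the differences at BPI and RNASE2 were -237 and -92 bp, those of peaks more than 10 kb away alone. Neither gene then had a parental peak within 10 kb, so neither would count as parental only at these limits. CTSG, BPI, CAMP and RNASE2 also had parental sums under 1000 bp, a class in which 44.6% of genes had no knockout peak within 20 kb. A parental peak spanned the TSS at 1 of 7 genes, MPO, and a knockout peak at 0, beside 20.2% and 8.20% of all genes listed in each genotype.

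Of the 29 parental peaks of the 7 genes, 14 (48.3%, exact 95% binomial interval 29.4 to 67.5) overlapped a knockout peak by at least 1 bp, beside 52.6% of all parental peaks. The overlapped peaks had a median width of 560 bp and the other 15 of 207 bp. Of the 22 knockout peaks, 18 (81.8%, interval 59.7 to 94.8) overlapped a parental peak, beside 88.7% of all knockout peaks. The 4 that did not, at MPO, PRTN3, BPI and PRG2, were 146 to 204 bp wide. Intervals cover counting error only, and neighbouring peaks are not independent.

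No H3K27me3 peak was listed within 20 kb of any of the 7 genes in either genotype. Over all 18086 genes, 12.9% had one in parental and 13.0% in knockout cells, and among the 15614 genes with H3K4me3 5.24% had one in either genotype. The nearest H3K27me3 peak in the lists lay 157.6 kb away, at PRG2, in parental cells, and 130.0 kb away, at MPO, in knockout cells. For MPO the nearest parental one lay 5196 kb away. These lists hold 3578 and 3234 peaks near start sites, and a region below the calling limit would not be listed.

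The promoter sequences of PRTN3, CTSG, CAMP and RNASE2, the 4 genes that matched the promoter table, are shown to give the letters just before their start sites. They are the 250 bases before the TSS, 5′ to 3′ on the gene's strand, from RefSeq (GRCh38.p14), at chr19:840749-840998, chr14:24576251-24576500 (minus strand), chr3:48223245-48223494 and chr14:20955237-20955486. Capitals mark GAGGAAG or its reverse complement, a form of the motif bound by PU.1, the ETS factor of myeloid cells.
PRTN3: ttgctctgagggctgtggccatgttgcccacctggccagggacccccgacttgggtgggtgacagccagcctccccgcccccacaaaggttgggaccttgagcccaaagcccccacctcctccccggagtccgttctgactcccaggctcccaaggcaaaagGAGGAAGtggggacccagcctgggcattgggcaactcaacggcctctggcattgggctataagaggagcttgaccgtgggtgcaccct
CTSG: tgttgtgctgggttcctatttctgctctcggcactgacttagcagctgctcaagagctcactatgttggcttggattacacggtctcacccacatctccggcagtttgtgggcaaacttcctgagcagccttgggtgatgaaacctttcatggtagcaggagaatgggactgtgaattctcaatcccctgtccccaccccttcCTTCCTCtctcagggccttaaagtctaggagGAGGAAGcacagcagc
CAMP: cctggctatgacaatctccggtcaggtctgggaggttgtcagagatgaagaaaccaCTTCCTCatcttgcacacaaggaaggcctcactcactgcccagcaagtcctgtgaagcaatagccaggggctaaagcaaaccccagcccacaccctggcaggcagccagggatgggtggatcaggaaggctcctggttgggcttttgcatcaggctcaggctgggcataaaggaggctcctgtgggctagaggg
RNASE2: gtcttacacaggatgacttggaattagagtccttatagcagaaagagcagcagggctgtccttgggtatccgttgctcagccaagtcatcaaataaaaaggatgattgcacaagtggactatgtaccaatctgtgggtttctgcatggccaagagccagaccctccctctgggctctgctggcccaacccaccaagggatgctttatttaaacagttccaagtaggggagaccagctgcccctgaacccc

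GAGGAAG was found on either strand in 3 of the 4 windows, at bases 88 to 82 before the TSS of PRTN3, at 47 to 41 and 16 to 10 for CTSG and at 194 to 188 for CAMP. Of 27305 RefSeq promoter windows of the same length 11.0% hold it. CCAAT was in 2 of the 4 (33.0% of all windows), GGGCGG in 1 (42.3%), and TATAAA (11.1%) and the C/EBP motif TTGCNNCAA (1.66%) in 0; no match of 1 motif overlapped that of another. A match is a description of letters and does not show that a factor binds. The windows held 6, 3, 1 and 1 CG dinucleotides in PRTN3, CTSG, CAMP and RNASE2, where the median of all windows was 11. Of 1592 listed genes with 0 to 3 CG, 22.5% had a parental H3K4me3 peak within 1 kb and 18.2% a knockout peak. For the 1411 genes with 4 to 9 CG, the class of PRTN3, these shares were 46.0% and 35.7%, and for the 3137 with 10 to 19 CG 79.7% and 69.7%. Of 5724 genes with at least 20 CG, 86.3% and 75.8% had one. Measured from the TSS in the deposited lists, no H3K4me3 peak of these 4 genes reached into the 250 bp upstream.

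A list of 21 other granule genes also includes S100A8, S100A9 and S100A12, whose proteins lie in the cytosol of granulocytes and not in granules. Of these 21 genes, 9 had an H3K4me3 peak within 20 kb in parental and 8 in knockout cells, and 11 had none in either. Of all 18086 symbols, 85.0% had one in parental, 75.6% in knockout cells and 74.3% in both. The 7 listed in both had a median log2 ratio of -0.70. HP, haptoglobin (231 bp), and FCN1, ficolin-1 (404 bp), were listed in parental cells only, and S100A8, a subunit of calprotectin (431 bp), in knockout cells only. Of the 15614 genes with a peak in either list, 12.5% were in the parental list alone and 1.49% in the knockout list alone. The lowest ratio was at LYZ, lysozyme, from 1924 to 278 bp (-2.79), with no peak closer than 11097 bp to its TSS, and the highest at S100A12, from 482 to 588 bp (0.29). AZU1, azurocidin, shares its peaks with PRTN3. The specific granule genes LTF, OLFM4, CRISP3 and PGLYRP1 and the defensin genes DEFA1, DEFA3 and DEFA4 had no H3K4me3 or H3K27me3 peak in any list. H3K27me3 was listed within 20 kb of CEACAM8 in parental cells only (1052 bp) and of CHIT1 (1330 bp) and MMP8 (1075 bp) in knockout cells only. S100A8, S100A9 and S100A12 shared 1 H3K27me3 peak in each genotype, 524 bp wide in the parental list and 750 bp wide in the knockout list. In all, 4 of the 21 genes had H3K27me3 in parental and 5 in knockout cells, beside 12.9% and 13.0% of all 18086 symbols. Both counts include S100A8, S100A9 and S100A12 with their 1 shared peak, so they are not counts of separate peaks.

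Genes that process, sort or release granule contents all had H3K4me3 close to their starts, with the nearest peak centre at most 813 bp from the TSS. Most genes did: a peak centre lay within 1 kb at 76.0% of all genes listed in parental and 73.6% of those listed in knockout cells. All 10 of the list were listed in both genotypes, as were 74.3% of all symbols. Their median log2 ratio was -1.29, and 6 of 10 were at -1 or below, near the 52.2% of all genes listed in both. CTSC, the protease that activates cathepsin G and proteinase 3, went from 3946 to 2053 bp (-0.94), and SRGN, the proteoglycan core of granules, from 3381 to 1956 bp (-0.79). SERPINB1, an inhibitor of these proteases, had the lowest ratio, from 1337 to 166 bp (-3.01), and LYST, a regulator of lysosome-related organelles, the highest, from 2849 to 1730 bp (-0.72). Of 7 eosinophil genes 3 were listed in both genotypes, beside the 74.3% of all symbols, SIGLEC8 (-0.62), PRG3 (-1.01) and IL5RA (-1.12). RNASE3 (150 bp) and CLC (167 bp) were listed in knockout cells only, as were 1.49% of the 15614 genes with a peak in either list. Both peaks are near the smallest width in the lists, 146 bp, and were centred 12976 bp (RNASE3) and 1737 bp (CLC) from the TSS. EPX, eosinophil peroxidase, and CCR3 were listed in neither genotype.

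**Figure D5:**
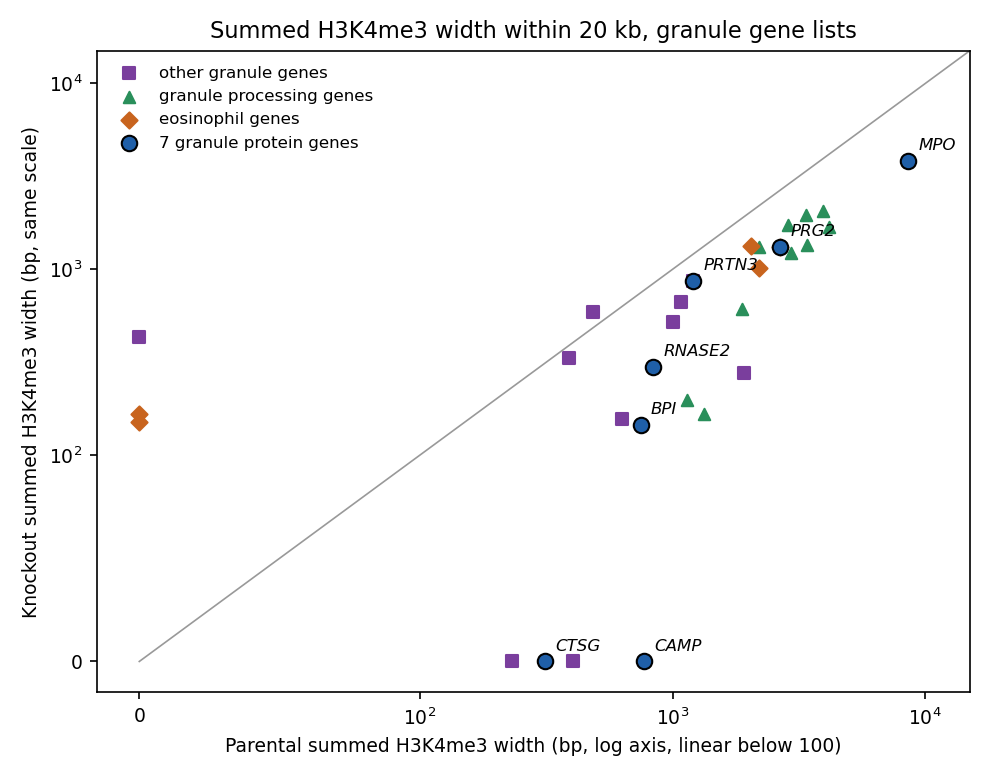
Summed H3K4me3 width within 20 kb in parental (horizontal) and knockout cells (vertical), in bp on logarithmic axes that are linear below 100, 1 point per gene listed in either genotype; the grey line marks equal width. The 7 granule protein genes lie below the line, with CTSG and CAMP at 0 in knockout cells; S100A8, RNASE3 and CLC are at 0 in parental cells.

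Markers of the labelled cell type were listed: CD33, ANPEP, SPI1, CEBPE and CSF3R all had H3K4me3 within 20 kb in both genotypes. Of the other lineages, CD3E, CD2, HBB and all 4 epithelial markers had none in either, while CD79A, EPOR and KLF1 had some in both. The lymphoid marker CD79A (from 6522 to 4327 bp) was wider in each list than SPI1 (from 6431 to 3943 bp), the widest myeloid marker. The erythroid marker EPOR (from 2896 to 1406 bp) was wider than CSF3R (from 2092 to 913 bp). KLF1 (from 2009 to 667 bp) was narrower than every myeloid marker. Neither a listing nor its width thus set the myeloid markers apart from all markers of other lineages.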

How the data were processed

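The 4 peak lists were deposited by the authors, 1 per library; hg19 as the build and BWA 0.7.10, MACS2 2.1.1 and SAMtools as tools come from the submitters' processing notes, and no settings are given in the sources used here. Per the file headers, a line pairs a peak with a RefSeq transcript and gives a distance and a score. The score deposited by the authors follows from the distance alone (largest error 5e-13) and was not used. Distances are peak centre minus TSS, up to 19999 bp; starts were read as counted from 0 and are printed as counted from 1. A matching input library of each genotype was not analysed here.

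Distinct peaks were counted by position, and widths summed per gene symbol, with pandas 2.3.3 and Python 3.11.15; the code was tested on simulated data. Exact intervals came from scipy 1.17.1. The strands of MPO, BPI and PRG2 are general knowledge; RefSeq promoters were matched by symbol for 4 of 7 genes, and without an hg19 annotation exons were not assigned. The 7 genes and the other gene lists were chosen with earlier results of these data known. Genes are named when they are members, share a member's peak, are listed in 1 genotype only or have a list's highest or lowest ratio; other list genes were named after their values were seen. Alternatives were distance limits of 10, 5 and 1 kb, nearest gene only, peaks of at least 300 bp, lists of equal length and other overlap rules. Some lineage markers are not reported here.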

Additional observations from a re-analysis of the deposited data

How the results depend on the processing

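The width differences of single members and their median log2 ratio kept their sign under each alternative that gave a value. CTSG and CAMP had no knockout peak, so their sign could not turn. Each alternative was drawn from the same lists, in which 96.1% of genes with a peak in both narrowed. The order of the peak counts did not hold. With lists of equal length, members had 21 parental and 22 knockout peaks, and the differences at RNASE2 and BPI shrank to -92 and -237 bp. The count of members with H3K27me3 stayed at 0 in both genotypes under all 6 alternatives to the 20 kb count. PRTN3 and CAMP had no peak within 1 kb in either list and so no value there. Fewer members were listed for H3K4me3 in knockout cells with limits of 10 kb (3) and 5 kb (3), within 1 kb (1) and with peaks of at least 300 bp (3). Distinct peaks of the members numbered 18 in parental and 13 in knockout cells within 5 kb, 9 and 1 within 1 kb, and 19 and 7 for peaks of at least 300 bp, where the median log2 ratio was -1.85. A narrower limit and a minimum width leave fewer peaks by construction. The median peak of the whole list was 359 bp wide in parental and 260 bp in knockout cells, so a minimum of 300 bp weighs more on the knockout list. No share over all genes is given for the 5 kb limit or this minimum, so these counts cannot be read as a trait of the members. The share of parental member peaks overlapped was 27.6% when 50% of the peak had to be covered, and 17.2% with reciprocal overlap of 50%, a rule added after seeing the data that gave 22.7% for knockout peaks. No share over all peaks is given under these rules, so these values cannot be read as a trait of the members. The joined region of PRG2 in knockout cells was 845 bp with gaps under 500 bp and 2296 bp with gaps under 1000 bp. No paired analysis was possible because each genotype and mark had 1 library. Depth is unknown, so a missing peak may lie below the calling limit.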
